A study of Mus musculus with 8 samples.

Results

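The genes described here encode the aldehyde dehydrogenases (Aldh), alcohol dehydrogenases (Adh), aldo-keto reductases of the Akr1 and Akr7 subfamilies, aldehyde oxidases (Aox), flavin-containing monooxygenases (Fmo) and carbonyl reductases (Cbr) of the mouse. They were chosen by gene symbol alone, with Akr1d1 left out, which gave 58 of the 22564 genes in the table: 20 Aldh, 7 Adh, 16 Akr, 4 Aox, 7 Fmo and 4 Cbr genes. Liver RNA was measured by RNA sequencing in 4 libraries of db/db mice, an obese and diabetic strain whose leptin receptor gene is defective, and in 4 libraries of C57BL/6 mice, called controls. Both groups were untreated. The labels give neither age nor sex, and the methods name another supplier and a younger age at purchase for the db/db mice than for the C57BL/6J mice of the study, so strain, source, age and genotype cannot be told apart. The labels do not say whether each library is a separate animal, and p-values measure the spread between libraries.

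These enzymes move electrons to or from carbonyl and amine groups, and several of them are abundant in liver. Alcohol dehydrogenases turn alcohols into aldehydes, aldehyde dehydrogenases turn aldehydes into acids with NAD or NADP, and aldo-keto and carbonyl reductases use NADPH to turn carbonyls back into alcohols. Aldehyde oxidases also make acids from aldehydes, with a molybdenum cofactor and oxygen, and flavin-containing monooxygenases oxidise the nitrogen or sulfur of amines, thiols and drugs.

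Between 9592 and 9948 genes reached 1 FPKM (fragments normalised to transcript length and sequencing depth) per library. The absolute depth is unknown, and the relative depth ran from 0.81 to 1.1 of that of control replicate 1. FPKM is scaled by transcript length, so levels of different genes can be set side by side, and all levels below are FPKM. Summed over all genes, FPKM was 555661 to 602391 in db/db and 641355 to 676884 in control libraries. The family sums below are not rescaled for this difference. In bulk liver, fewer cells of a type and less RNA per cell cannot be told apart. Among hepatocyte markers 3 of 7 tested were lower in db/db livers, namely Apoa1, Ttr and Serpina1c, and 4 did not pass. The summed level of all 8 listed markers was 7801 to 9809 FPKM against 25485 to 31807 in controls, and Apoa1 alone averaged 982 against 15006 FPKM. Albumin (Alb) was listed at 0 in all 8 libraries. Markers of Kupffer cells (3 of 7 lower, sum 73 to 108 against 113 to 177 FPKM) and sinusoidal endothelium (3 of 8 lower, 66.8 to 78 against 83.4 to 113) were lower in part, while those of stellate cells overlapped (1 of 5 lower, 92.4 to 118 against 91.7 to 109). The Kupffer cell marker Marco was under 1 FPKM in every db/db library. It could be tested only by being high in controls, and without it 2 Kupffer cell markers were lower. The part of these markers in the results was not tested. The db/db replicate 1 stood apart from the other db/db libraries in sex-biased genes, described below. The Y-linked gene Eif2s3y stood at 27.5 to 41.7 FPKM and was expressed in all 8 libraries.

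The most abundant aldehyde dehydrogenase gene of these livers, Aldh1a1, lies beside its near copy Aldh1a7 on chromosome 19, and both were higher in db/db livers. Their proximal promoters are shown because the genes moved together. Only sequence shared within the transcripts can blur the split of reads between them, and that is given after the promoters. Aldh1a1 spans chr19:20492715-20643465 on the plus strand and Aldh1a7 spans chr19:20692953-20727562 on the minus strand (GENCODE M21, GRCm38, the same assembly as mm10). The 250 bases before each RefSeq start site (GRCm38.p6) are chr19:20601718-20601967 and chr19:20727557-20727806, read 5′ to 3′ along the gene. Capitals mark every exact run of at least 12 bases that both windows hold.
Aldh1a1: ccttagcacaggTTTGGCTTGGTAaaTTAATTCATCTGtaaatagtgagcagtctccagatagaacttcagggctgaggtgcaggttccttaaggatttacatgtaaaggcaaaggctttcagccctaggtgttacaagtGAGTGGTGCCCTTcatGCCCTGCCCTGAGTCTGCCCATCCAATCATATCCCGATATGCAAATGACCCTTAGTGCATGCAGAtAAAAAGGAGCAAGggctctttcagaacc
Aldh1a7: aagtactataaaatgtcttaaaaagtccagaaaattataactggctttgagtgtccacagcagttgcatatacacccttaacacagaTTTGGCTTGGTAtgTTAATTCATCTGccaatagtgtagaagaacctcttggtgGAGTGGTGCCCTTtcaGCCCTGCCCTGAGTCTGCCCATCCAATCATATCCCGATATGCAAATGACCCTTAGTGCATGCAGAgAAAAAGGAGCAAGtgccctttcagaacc
The promoters shared 5 such runs, which covered 115 bases of each. The longest was 65 bases long and began 94 bases before the start in both. It held a CCAAT box 72 bases and an octamer (ATGCAAAT) 56 bases before the start, at the same distance in both genes. On either strand, CCAAT was found in 33.8% of 32851 mouse promoters of this length and the octamer in 1.6%. Of the 31 tested members with a RefSeq promoter, 18 held CCAAT and 3 held the octamer, namely Aldh1a1, Aldh1a7 and Aldh8a1. In the transcripts themselves, 94.3% of the 31-base words of Aldh1a1 and 86.2% of those of Aldh1a7 were found in no other gene. Aox1 and Aox3, also neighbours, shared no run longer than 7 bases in this window.

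Relative to controls, livers of db/db mice held more mRNA of nearly every aldehyde dehydrogenase that could be tested. The flavin-containing monooxygenases Fmo5 and Fmo4 were also higher, as was Fmo2, whose groups overlapped and whose call was lost under some settings. The aldehyde oxidase Aox3 and Adh6-ps1 were far lower. The main alcohol dehydrogenase, Adh1, did not pass the test. Of the 58 members, 37 reached 1 FPKM in at least 4 libraries and were tested by limma on log2(FPKM + 1). In total, 19 (51.4%) were significantly higher and 4 (10.8%) significantly lower at an adjusted p under 0.05, and 14 did not pass. Among all 9863 tested genes 16% were higher and 11.6% lower, or 27.7% in all. The median log2 fold change was 0.35 over the tested members and 0.04 over all tested genes. All db/db libraries lay above all controls in 18 tested members, against 17.3% of all genes, and below them in 4, against 12.1%. Changes were mostly modest: 6 members changed by at least 1 on the log2 scale, 4 upwards (3.73% of all genes) and 2 downwards (2.51%). Of these, Adh6-ps1 was under 1 FPKM in every db/db library, so it could pass the filter only by being high in controls. Without such genes (68 of the 9863 tested) 3 members (8.33%) were lower, against 11% of all genes. Likewise 3 members lay below all controls, against 1126 of all genes. Only 1 member fell by at least 1 on the log2 scale, against 208 of all genes. Without db/db replicate 1 the counts were again 19 and 4. Without control replicate 1 the lower count was 2, since Adh6-ps1 could no longer be tested and Akr1c6 no longer passed. Some members, among them Aox3, Adh6-ps1, Aldh1a1, Aldh3a2 and Fmo5, are named as changed in supplementary tables of the study, which drew partly on these samples, so their direction is not independent evidence.

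**Figure D1:**
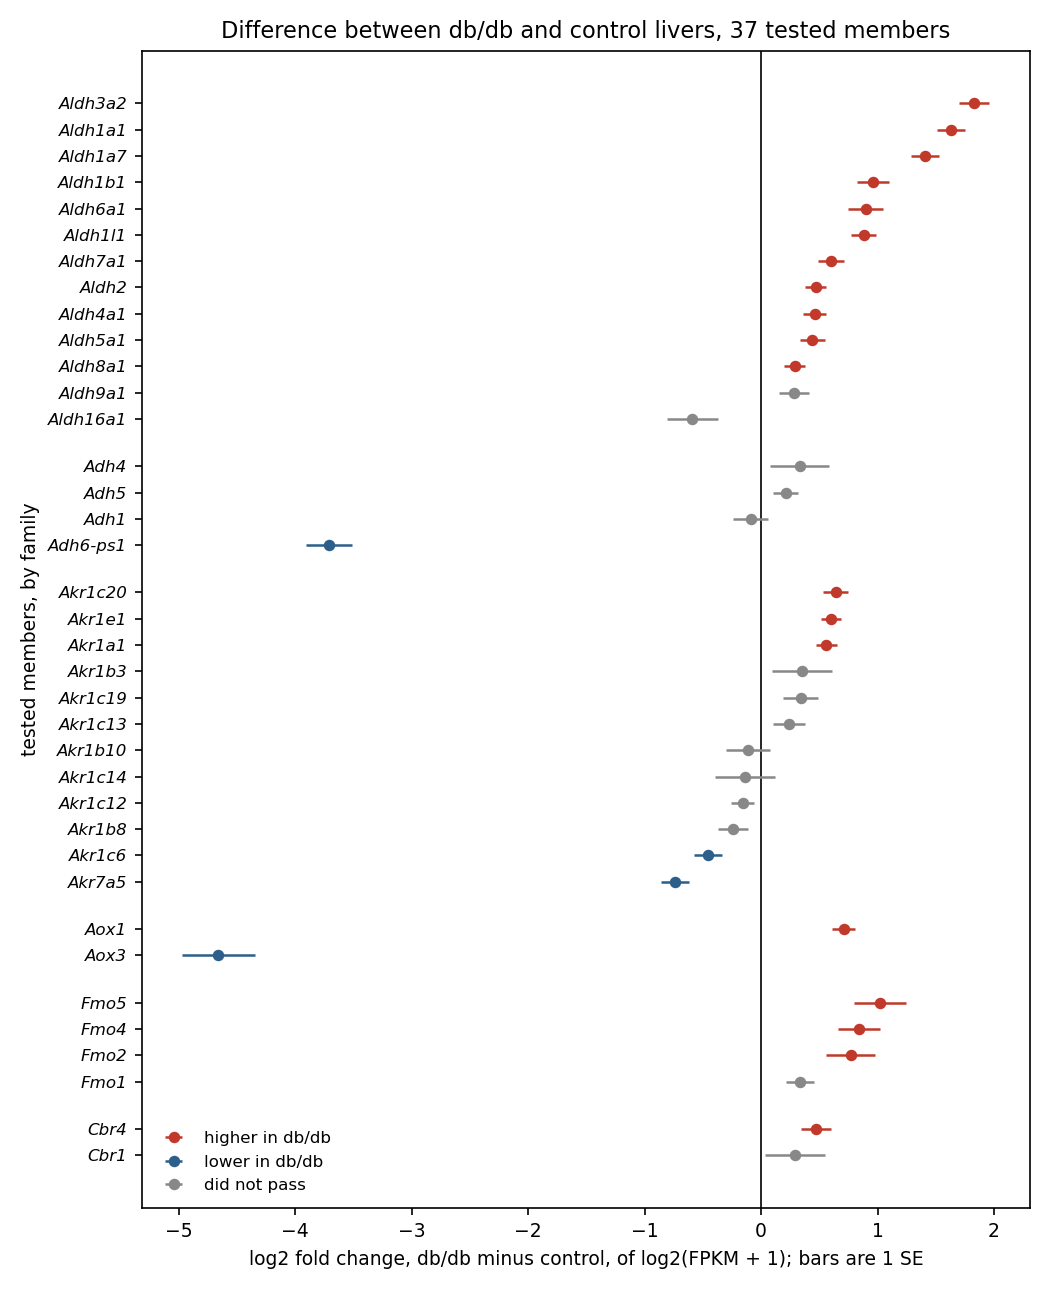
Log2 fold change (db/db minus control, of log2(FPKM + 1)) with its SE for the 37 tested members, grouped by family, red where higher, blue where lower and grey where the test was not passed. The 11 changed Aldh genes lie right of 0, and Aox3 (-4.66) and Adh6-ps1 (-3.71) lie far to the left.

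Of 13 tested aldehyde dehydrogenases, 11 (84.6%) were higher, 0 were lower and 2 did not pass, and their median log2 fold change was 0.60. Among all tested genes 16% were higher and 11.6% lower, with a median of 0.04. Aldh3a2, the membrane-bound fatty aldehyde dehydrogenase, gave 246, 299.7, 309 and 310.2 FPKM from db/db replicate 1 through 4, whereas control replicate 1 through 4 gave 92.4, 89.5, 65.4 and 79.9 FPKM. The groups did not overlap, and db/db replicate 1 was the lowest of its group. The mean was 291 ± 30.4 against 81.8 ± 12.2 FPKM (SD, n = 4), a log2 fold change of 1.83 (SE 0.13, limma adjusted p = 5.76e-06), and it was 1.9 without db/db replicate 1. The gene lies at chr11:61223417-61267464 on the minus strand, and all of its 31-base words were unique.

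Aldh1a1, the cytosolic retinaldehyde dehydrogenase, reached 1510, 1826, 1935 and 2104 FPKM in db/db and 619, 618, 542 and 585 FPKM in control replicates. Every db/db library was above every control, with db/db replicate 1 the lowest of its group. The mean of 1844 ± 250.1 against 591 ± 36.5 FPKM (n = 4) was 3.12 times higher (log2 fold change 1.63, SE 0.12, limma adjusted p = 8.11e-06), and the log2 fold change was 1.72 without db/db replicate 1. Its neighbour Aldh1a7, a rodent enzyme of the same subfamily, was at 299, 339, 279.6 and 314 FPKM in db/db and at 136, 116, 101 and 109 FPKM in control replicates. The groups were again apart, with a log2 fold change of 1.41 (SE 0.12, limma adjusted p = 1.39e-05). The ratio of Aldh1a1 to Aldh1a7 was 5.05 to 6.92 in db/db and 4.56 to 5.38 in control libraries, so the ranges of the ratio overlapped while both levels moved.

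Aldh2, the mitochondrial enzyme that clears acetaldehyde, was the second most abundant member of the family. The db/db libraries gave 583, 623, 616 and 644 FPKM and the controls 457, 466, 408 and 446 FPKM. The groups did not overlap, but the difference was small, 616 ± 25.5 against 444 ± 25.3 FPKM (n = 4; log2 fold change 0.47, SE 0.09, limma adjusted p = 0.00408). Aldh1b1, its mitochondrial relative, rose from 20.9 ± 3.08 to 41.7 ± 5.72 FPKM (0.96, 0.000542).

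Single members that act in amino acid and folate breakdown were also higher. Aldh6a1, which acts on methylmalonate semialdehyde in valine and thymine breakdown, rose from 96.6 ± 19.2 to 179 ± 14.1 FPKM (log2 fold change 0.90, limma adjusted p = 0.00125). Aldh1l1, the cytosolic 10-formyltetrahydrofolate dehydrogenase, rose from 328 ± 31.6 to 606 ± 56.2 FPKM (0.88, 0.000269). Aldh7a1, of lysine breakdown, rose from 217 ± 6.41 to 332 ± 40.8 FPKM (0.60, 0.00255). The increases of Aldh4a1 (proline breakdown, 73.4 to 101 FPKM), Aldh5a1 (succinic semialdehyde from GABA, 8.81 to 12.2 FPKM) and Aldh8a1 (kynurenine pathway, 133 to 163 FPKM) were of 0.46, 0.44 and 0.29 on the log2 scale. Aldh8a1 passed narrowly (limma adjusted p = 0.0406), keeping its call under 5 of 16 alternative settings, with adjusted p up to 0.0869.

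The remaining aldehyde dehydrogenases did not pass. Aldh9a1, of carnitine synthesis, averaged 89.5 ± 8.1 against 73.9 ± 10.4 FPKM (limma adjusted p = 0.122). Aldh16a1, an atypical member of the family, averaged 28.5 ± 9.09 against 42.8 ± 11.1 FPKM (0.0736), and passed as lower without db/db replicate 3 (0.0184) and at a fold change of 1.5 with its unadjusted p (0.0236). The other 7 Aldh genes were under the filter. Of these, Aldh3b1 reached 1.84 FPKM at most, Aldh18a1 (proline synthesis) 0.337, Aldh1a3 0.266, Aldh1a2 0.187, Aldh3b2 0.112, Aldh3a1 0.0782 and Aldh1l2 0.0498. Of the retinaldehyde dehydrogenases of the Aldh1a group, Aldh1a1 was the abundant one in both groups of livers. Some values carry a counting doubt: 31% of the words of Aldh4a1 are shared with the overlapping Gm21969 on the same strand. With genes on the opposite strand, 17.1% of the words of Aldh6a1, 12.3% of Aldh5a1 and 9.71% of Aldh1l1 are shared. Strand use in counting is not given in the sources used here.

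**Figure D2:**
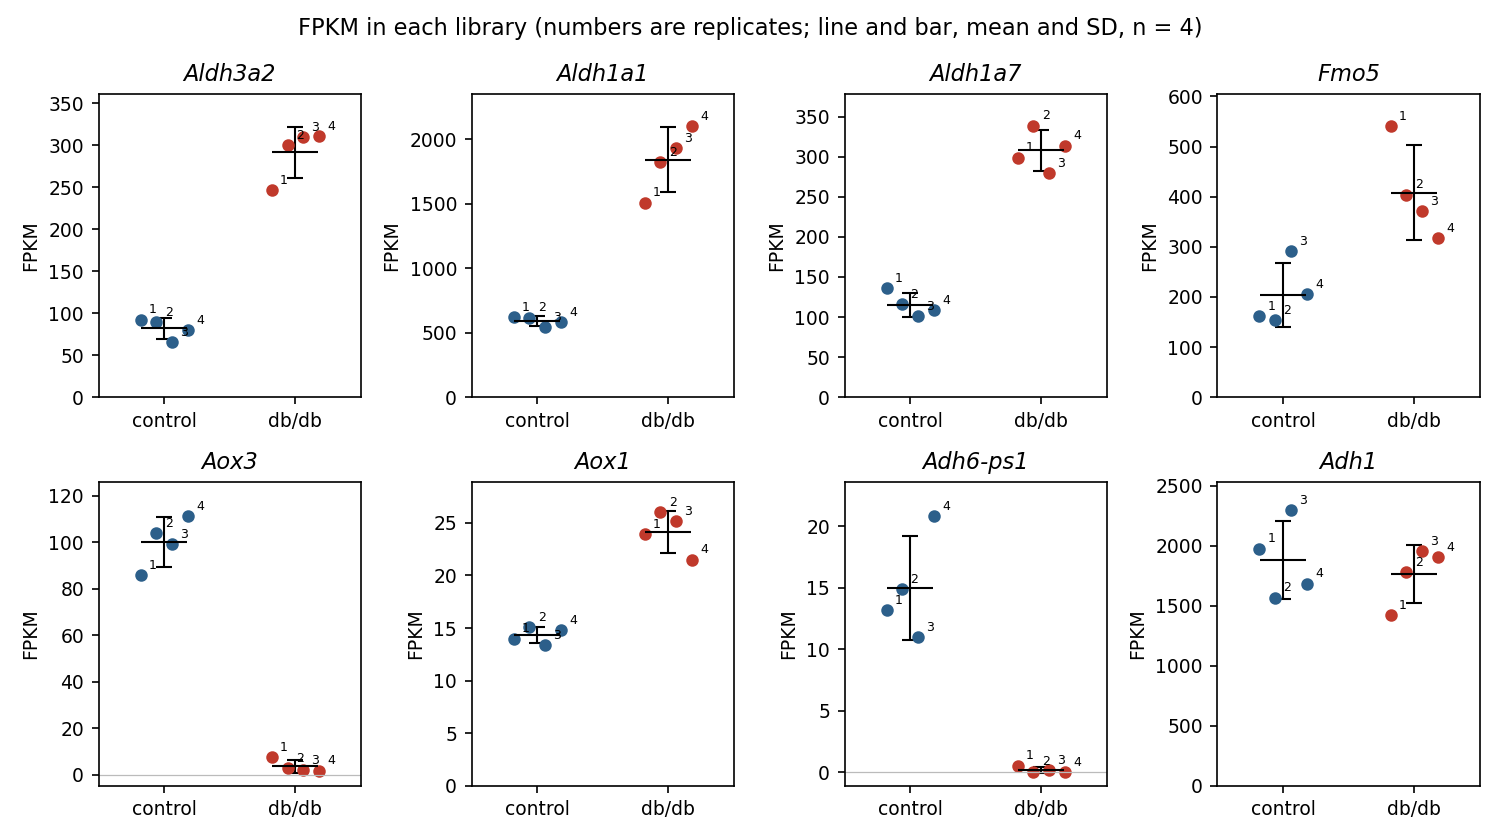
FPKM of 8 members in each library (points numbered by replicate, blue control, red db/db), with the mean and SD of n = 4. Aldh3a2, Aldh1a1, Aldh1a7, Fmo5 and Aox1 lie higher in all db/db libraries, Aox3 and Adh6-ps1 lie near 0 in db/db, and the groups overlap in Adh1.

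Summed over its 20 genes, the Aldh family held 4251 to 5031 FPKM in db/db and 2119 to 2330 FPKM in control libraries, a ratio of the means of 2.07. Aldh1a1 made up 35.5% to 42.1% of that sum in db/db and 25.6% to 27% in controls, while Aldh2 made up 12.8% to 13.7% against 19.3% to 20.6%. Among 17 tested partner enzymes of the mitochondrial and folate aldehyde dehydrogenases, 11 were higher and 1 was lower (median log2 fold change 0.41). Examples with the smallest adjusted p were Bhmt (betaine-homocysteine methyltransferase, log2 fold change 1.93), Dmgdh (dimethylglycine dehydrogenase, 1.28) and Hibch (valine breakdown, 0.92). Among 15 tested targets of PPARalpha, the nuclear receptor of fatty acid oxidation in liver, 14 were higher (median log2 fold change 1.53). Without Pdk4, under 1 FPKM in every control, 13 were higher. Cyp4a10 was at 3.40, Cyp4a14 at 4.68 and Ehhadh at 1.97. Of all tested genes 16% were higher and 11.6% lower, and the relation of both lists to the members was not tested.

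Of 16 tested retinoid partners 3 (18.8%) were higher and 3 (18.8%) lower, near the 16% and 11.6% of all tested genes (median log2 fold change -0.06). The retinol dehydrogenase gene Rdh16 rose by 2.08, whereas Rdh9 fell by 1.05 on the log2 scale. For the ethanol and acetate list the count was 4 higher and 0 lower of 6, with Acss3 (3.21), Acly (1.38) and Acat2 (0.69). Acss3 was under 1 FPKM in every control, so it could pass the filter only by being high in db/db, and without it the count was 3 higher.

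**Figure D3:**
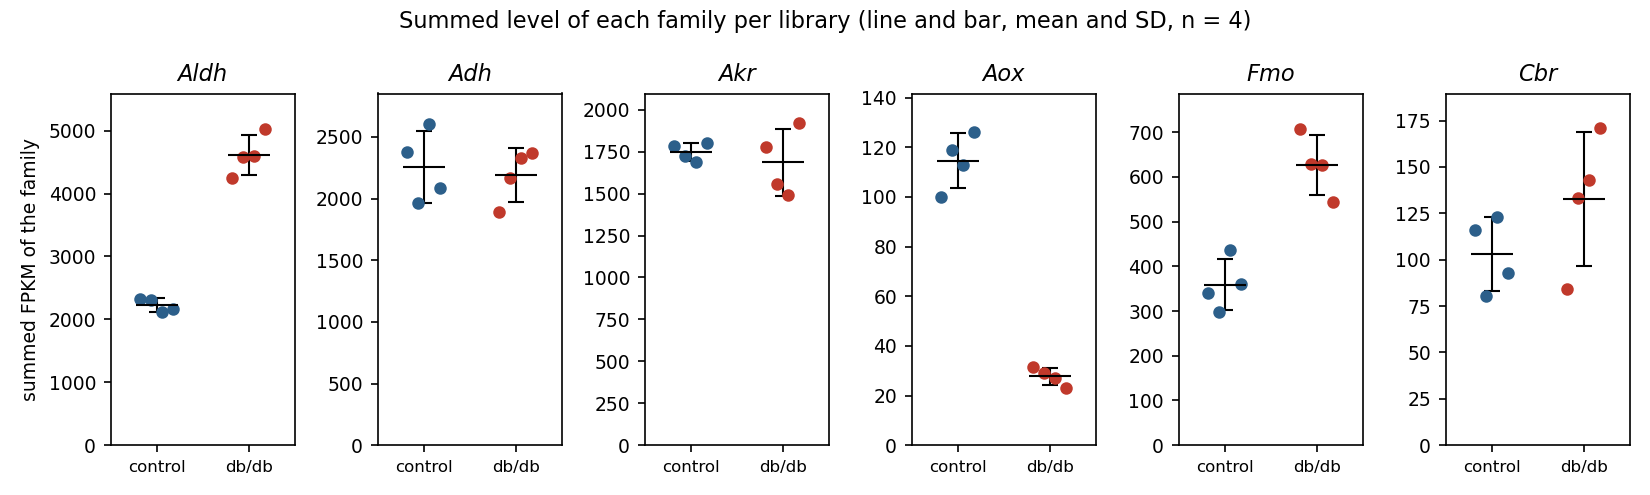
Sum of FPKM over all genes of each family in each library (points, blue control, red db/db), with the mean and SD of n = 4, each panel from 0. The Aldh and Fmo sums are higher and the Aox sum is lower in every db/db library, while those of Adh, Akr and Cbr overlap.

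Of 4 tested alcohol dehydrogenases, 0 were higher, 1 was lower (Adh6-ps1, tested through its controls alone) and 3 did not pass. The median log2 fold change was 0.06, and of all tested genes 16% were higher and 11.6% lower. Adh1, the main enzyme of ethanol oxidation and also active on retinol, was at 1423, 1779, 1953 and 1906 FPKM in db/db and at 1977, 1569, 2301 and 1685 FPKM in control replicates. The groups overlapped, and the log2 fold change of -0.09 (SE 0.15, limma adjusted p = 0.703) was within the spread between libraries. Its sign turned to 0.17 under quantile normalization and to 0.01 without db/db replicate 1 or without control replicate 3. Relative to Adh1, Aldh1a1 was at 0.991 to 1.10 in db/db and at 0.236 to 0.394 in control libraries.

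Adh5, which oxidises the glutathione adduct of formaldehyde, was at 331, 313, 319 and 378 FPKM in db/db and at 306, 302, 243 and 311 FPKM in control replicates. The groups just missed each other, but the log2 fold change of 0.21 (SE 0.11, limma adjusted p = 0.199) did not pass. It passed under quantile normalization (0.37, adjusted p = 0.0242) and was 0.13 without control replicate 3. Adh4 averaged 87.2 ± 33.2 FPKM in db/db and 66.7 ± 13.8 FPKM in controls (adjusted p = 0.351).

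Adh6-ps1, named as a pseudogene although the table lists it among protein-coding genes, was nearly lost. It was at 0.558, 0.064, 0.202 and 0.0211 FPKM in db/db and at 13.2, 14.9, 11.0 and 20.8 FPKM in control replicates. No db/db library reached 1 FPKM and every control was at 11 or above, a log2 fold change of -3.71 (SE 0.20, limma adjusted p = 7.14e-07), or -3.84 without db/db replicate 1. It passed the filter through the controls alone and had to differ, so its call adds nothing to its values. The pseudocount also sets the size: the log2 fold change was -4.46 with 0.5 and -5.87 with 0.1. The gene spans chr3:138374121-138395002 on the plus strand, with 90.7% of its words unique. Of the other Adh genes around it on chromosome 3, Adh1, Adh4 and Adh5 were well measured and the rest were not. Adh7, the stomach form, was at 0.404 to 0.655 FPKM in db/db and at 0.901 to 1.25 in controls, Adh6b at 0.0335 to 0.316 against 0 in every control, and Adh6a reached 0.0284 FPKM at most. With no filter, Adh7 passed as lower (log2 fold change -0.42, adjusted p = 0.0113) and Adh6b as higher (0.23, 0.0426). The family sum, of which Adh1 held 75.4% to 88.3%, was 1888 to 2370 FPKM in db/db and 1965 to 2605 FPKM in control libraries.

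Of 12 tested aldo-keto reductases, 3 (25%) were higher, 2 (16.7%) were lower and 7 did not pass (median log2 fold change 0.06), shares near the 16% and 11.6% of all tested genes. Akr1a1, the aldehyde reductase that also acts in ascorbate synthesis, was at 423, 432, 395 and 458 FPKM in db/db and at 293, 275, 309.6 and 279 FPKM in control replicates. The groups were apart, with 427 ± 26 against 289 ± 15.6 FPKM (n = 4; log2 fold change 0.56, SE 0.09, limma adjusted p = 0.00158). Akr1c20 rose from 66.4 ± 7.28 to 104 ± 7 FPKM (0.64, 0.00147) and Akr1e1, an anhydrofructose reductase, from 29 ± 2.23 to 44.3 ± 1.23 FPKM (0.60, 0.000971).

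Akr1c6, a 17beta-hydroxysteroid dehydrogenase of mouse liver and the most abundant Akr gene, moved the other way. It was at 673, 544, 527 and 730.1 FPKM in db/db and at 889, 817, 819.9 and 838 FPKM in control replicates. All db/db libraries were below all controls, with a log2 fold change of -0.46 (SE 0.12, limma adjusted p = 0.0204), but the call was lost without db/db replicate 2 (0.0687) or 3 (0.0610) or control replicate 1 (0.0613). Akr7a5, an aflatoxin aldehyde and succinic semialdehyde reductase, fell from 100.3 ± 16.4 to 59 ± 2.16 FPKM (-0.74, 0.00107) with no overlap.

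Akr1b3 (aldose reductase), Akr1b8, Akr1b10, Akr1c12, Akr1c13, Akr1c14 (a 3alpha-hydroxysteroid dehydrogenase) and Akr1c19 did not pass, at adjusted p from 0.109 to 0.721. Akr1c12 and Akr1c13 are near copies, with 39.2% and 33.7% of their words shared with each other, so their separate levels of 74.9 and 109 FPKM in db/db and 83.6 and 91.1 FPKM in controls are uncertain. Akr1c20, Akr1c6 and Akr1e1 stand at 1 merged locus in the table together with Akr1c21, and Akr1b8 and Akr1b10 at another with Akr1b7. The highest values of the untested genes were 0.367 FPKM for Akr1b7, 0.307 for Akr1c21, 0.113 for Akr1c18 and 0.0401 for Akr1cl. The family sum was 1491 to 1920 FPKM in db/db and 1689 to 1801 FPKM in control libraries. Within it, Akr1c6 went from 46.5% to 49.8% in controls to 34.9% to 38% in db/db, and Akr1a1 from 15.5% to 18.3% up to 23.8% to 27.8%. Of 9 tested carbonyl and polyol partners 4 were higher and 2 lower (median 0.30), and of all tested genes 16% were higher and 11.6% lower. Among these partners Glo1, which detoxifies methylglyoxal, was at 1.34, Cryl1 at 1.24 and Hsd17b6 at -1.96.

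The aldehyde oxidases, next to each other on chromosome 1, moved in opposite directions. Aox3, a main aldehyde oxidase of mouse liver, was at 7.55, 2.91, 1.84 and 1.65 FPKM in db/db and at 85.9, 104, 99.1 and 111 FPKM in control replicates. The highest db/db value, that of replicate 1, was far below the lowest control. The mean of 3.49 ± 2.76 against 99.9 ± 10.6 FPKM (n = 4) was 28.7 times lower (log2 fold change -4.66, SE 0.31, limma adjusted p = 3.38e-06), and the log2 fold change was -5.03 without db/db replicate 1. Aox1, the neighbouring gene upstream on chromosome 1, was at 23.9, 26, 25.2 and 21.5 FPKM in db/db and at 14, 15.1, 13.4 and 14.8 FPKM in control replicates. It was higher in all db/db libraries (log2 fold change 0.71, SE 0.10, limma adjusted p = 0.000521).

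The ratio of Aox3 to Aox1 was 6.13 to 7.53 in control and 0.0731 to 0.316 in db/db libraries, and Aox3 made up 86% to 88.3% of the Aox sum in controls but 6.81% to 24% in db/db. The sum itself was 99.9 to 126 FPKM in control and 23.2 to 31.4 FPKM in db/db libraries. Aox1 (chr1:58029931-58106413) and Aox3 (chr1:58113130-58200698) lie head to tail on the plus strand, with 98.8% and 99.6% of their words unique. Of the other Aox genes of this cluster, Aox2 reached 0.0256 FPKM and Aox4 was listed at 0 in all libraries. Of 9 tested genes that make the molybdenum cofactor or use it in other enzymes, 3 were higher and 0 lower. The other 6 did not pass, and of all tested genes 16% were higher and 11.6% lower. The 3 were Suox (sulfite oxidase, 1.19), Mocs2 (0.52) and Mocos (0.54), which activates aldehyde oxidases.

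The flavin-containing monooxygenases rose in 3 of 4 tested genes, with 0 lower and a median log2 fold change of 0.80. Of all tested genes 16% were higher and 11.6% lower, with a median of 0.04. Fmo5, an atypical form that oxidises carbonyls, was the most abundant at 541, 404, 371 and 317 FPKM in db/db and at 161, 154, 292 and 206 FPKM in control replicates. The groups did not overlap, although control replicate 3 came close to db/db replicate 4. The mean was 408 ± 95.7 against 203 ± 63.5 FPKM (n = 4; log2 fold change 1.02, SE 0.22, limma adjusted p = 0.00574), and the log2 fold change was 0.88 without db/db replicate 1. Fmo1, which oxidises many drugs, was at 157, 204, 206 and 185 FPKM in db/db and at 173, 138, 139 and 146 FPKM in control replicates. It overlapped and did not pass (0.33, SE 0.12, limma adjusted p = 0.0658), but passed without db/db replicate 1 (0.41, 0.0209), without control replicate 1 (0.0465), with array weights (0.0307) and under quantile normalization (0.0459).

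Fmo4 rose from 2.16 ± 0.847 to 4.53 ± 0.495 FPKM (log2 fold change 0.84, limma adjusted p = 0.00536). Fmo2, mainly a lung form, rose from 4.55 ± 0.922 to 8.67 ± 2.83 FPKM (0.77, 0.0213), with overlapping groups, and lost its call with no filter or without db/db replicate 3 or 4 or control replicate 3 (adjusted p up to 0.0643). Fmo6 and Fmo9 were listed at 0 in all libraries. The Fmo sum was 545 to 708 FPKM in db/db and 298 to 436 FPKM in control libraries, a ratio of the means of 1.75. Of 7 tested amine-oxidising partners 3 were higher and 1 lower, beside 16% and 11.6% of all tested genes. The monoamine oxidase genes Maob and Maoa were at 1.05 and 0.87 and Cyp2d22 at -0.55.

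The db/db replicate 1 also stood apart in genes known to differ between the sexes of mouse liver under growth hormone. Of 17 tested male-biased genes 13 were lower in db/db livers and 1 was higher (median log2 fold change -2.98). Of 12 tested female-biased genes 11 were higher and 0 lower (median 3.27). Among all tested genes 16% were higher and 11.6% lower. Of the 11 higher female-biased genes, 5 were under 1 FPKM in every control and could pass the filter only by being high in db/db. Sult1e1, Cyp2b9 and Sult2a2 were among these 5, whose values also raise the median, and without them 6 were higher. The male-biased genes with the smallest adjusted p were Serpina1e (-6.80), Selenbp2 (-4.67) and Gstp1 (-2.98). The female-biased ones were Sult1e1 (7.04), Cyp2b9 (7.35) and Sult2a2 (7.12). The study names several of these genes from the same samples, so their direction is not independent evidence. The male-biased sum went from 21054 to 23309 FPKM in controls to 3575, 1483, 1189 and 1282 FPKM in the db/db libraries, in order of replicate. The female-biased sum of the same libraries was 590.1, 1094, 1668 and 1934 FPKM, with 69.3 to 124 FPKM in controls. Among db/db libraries, replicate 1 was thus the nearest to the controls in both sums, in Aox3 and, at values under 1 FPKM, in Adh6-ps1. It was not the nearest in the other lower members. Akr1c6 was nearest to controls in db/db replicate 4 (730.1 FPKM, against 673 in replicate 1). Akr7a5 was farthest from controls in db/db replicate 1, at 56.9 FPKM. The relation between these members and the lists was not tested.

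**Figure D4:**
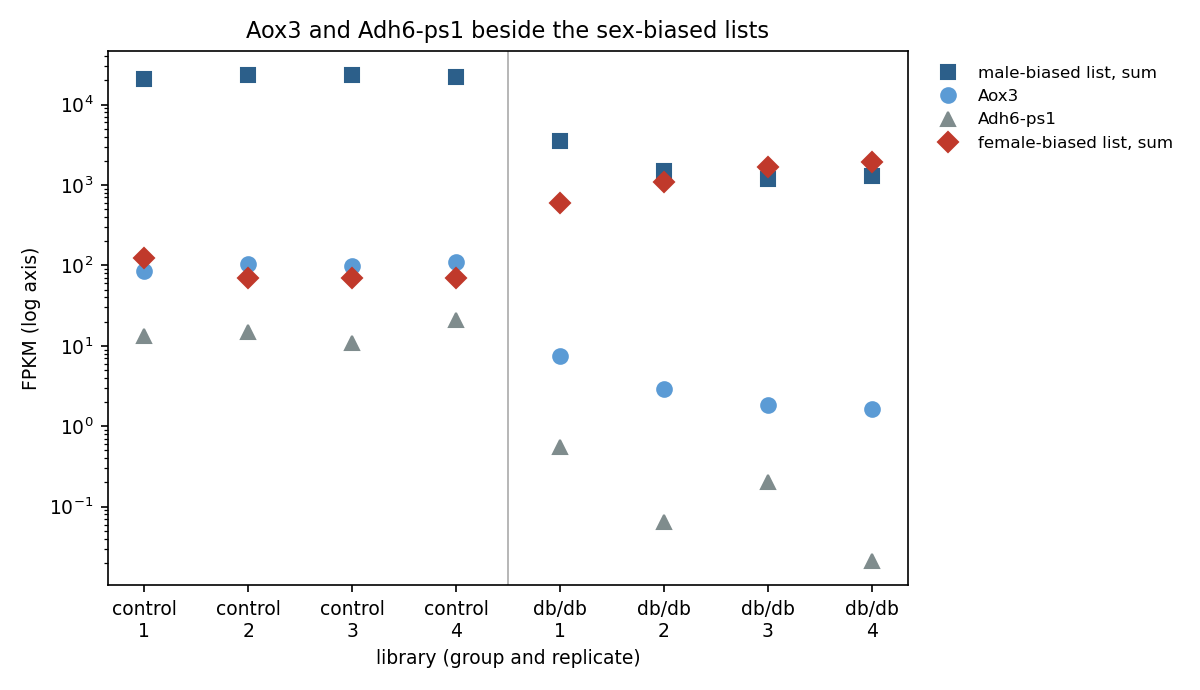
FPKM on a log axis in each library of Aox3 and Adh6-ps1 and of the summed male-biased and female-biased lists. In db/db replicate 1 the male-biased sum (3575) and Aox3 (7.55) are the highest and the female-biased sum (590.1) is the lowest of the db/db group.

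Of the 2 tested carbonyl reductases 1 was higher, too few to set apart from the 16% of all tested genes. Cbr1, a cytosolic reductase of quinones and prostaglandins, was at 54.7, 95.2, 109 and 133 FPKM in db/db and at 85.2, 55.9, 99.4 and 71.1 FPKM in control replicates. The groups overlapped widely and the log2 fold change of 0.29 (SE 0.26, limma adjusted p = 0.438) did not pass. Single libraries moved it, to 0.54 without db/db replicate 1 (adjusted p = 0.0666), 0.12 without db/db replicate 4 and 0.14 without control replicate 2. Cbr4, a subunit of a mitochondrial fatty acid synthesis enzyme, was at 29.1, 36.2, 33.8 and 37.5 FPKM in db/db and at 30.7, 23.7, 22.7 and 21 FPKM in control replicates. It passed (log2 fold change 0.47, SE 0.13, limma adjusted p = 0.0241) despite overlapping groups, and lost the call without db/db replicate 2, 3 or 4 or control replicate 2, 3 or 4 (adjusted p up to 0.0705). Cbr3 reached 1.34 FPKM at most and Cbr2 was listed at 0 throughout. The Cbr sum was 84.1 to 171 FPKM in db/db and 80.3 to 123 FPKM in control libraries.

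Other lists of drug and stress response genes, given here as further context, also held more higher than lower genes. So did all tested genes (16% higher, 11.6% lower), and the relation of these lists to the members was not tested. Of 18 tested targets of NRF2, the factor of the oxidative stress response, 11 were higher (10 without Abcc4, under 1 FPKM in every control) and 1 lower (median log2 fold change 0.62), with Ephx1 at 1.24, Gsta2 at 2.78 and Nqo1 at 2.23. Of 13 tested targets of the xenobiotic receptors CAR and PXR, 5 were higher and 0 lower (median 0.53), with Sult1e1 (also in the female-biased list, and leaving 4 without it) at 7.04, Cyp2b10 at 3.29 and Cyp2c29 at 1.21. Among genes of the liver zones, of 8 tested pericentral genes 2 (25%) were higher and 1 (12.5%) lower. Of 8 tested periportal genes 1 (12.5%) was higher and 0 lower. With so few genes these shares cannot be set apart from those of all tested genes. On the promoters, the letters of a STAT5 site (TTCNNNGAA) were found in 3 of 31 tested members and 7.02% of all promoters, the nuclear receptor half-site AGGTCA in 5 and 14.0%, and the antioxidant element core TGACNNNGC in 1 and 10.2%. These letters were searched on both strands, and a match is a description of sequence only.

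**Figure D5:**
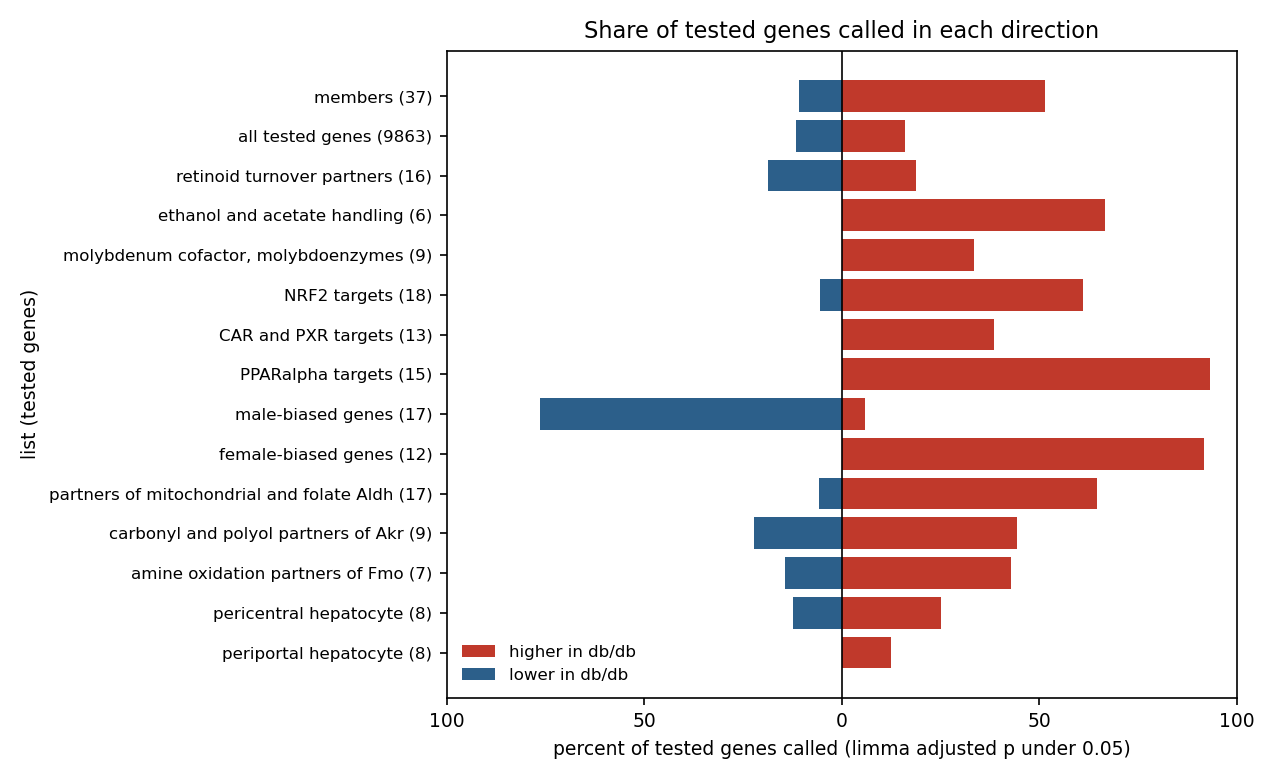
Percent of tested genes higher (red, to the right) or lower (blue, to the left) in db/db livers, limma adjusted p under 0.05, for the members, all tested genes and each list, with the number tested in brackets. The members were 51.4% higher and 10.8% lower and all tested genes 16% higher and 11.6% lower.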

How the data were processed

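The labels state that liver RNA was depleted of ribosomal RNA for stranded libraries. The submitters' processing notes name cutadapt 1.9.3, HISAT2 2.0.4, mouse build mm10, Cufflinks and Cuffdiff. The sources used here give neither the annotation release nor how strand was counted. The deposited values are FPKM that the authors computed per gene and library, so no count model was used. The table lists 22564 genes, 1 row held no values, and an exact 0 can be a failed estimate.

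Replicates were numbered within a group for naming only. Genes of at least 1 FPKM in 4 or more of the 8 libraries were tested on log2(FPKM + 1), a scale that understates changes of weak genes, with limma 3.58.1 in R 4.3.3 (mean-variance trend, 2-sided, no covariate) and Benjamini-Hochberg adjustment over all 9863 tested genes. The fit was tested on simulated data. Relative depth was read from genes under 0.3 FPKM.

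The members and lists were chosen with earlier results of these data known, so lists have counts and medians and no test. Changed members with an absolute log2 fold change of at least 1, and the 2 most abundant of each family, are given in every library, and at most 3 genes of a list, those with the smallest adjusted p, are named. Alternatives were pseudocounts of 0.1 and 0.5, no filter, a mean of at least 5 FPKM, median-ratio scaling, quantile normalization, no trend, array weights, the study's threshold (1.5 with unadjusted p under 0.05, read as log2 or, added after seeing the data, as fold) and leaving out each library. Shared sequence was counted in 31-base words of GENCODE M21 transcripts. A few genes are not reported here.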

Additional observations from a re-analysis of the deposited data

Results flagged for a closer look

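In 74 groups of 4 libraries (37 tested members, each in db/db and in control livers), 4 held 1 library far from the other 3 by Dixon's test, and chance gives about 1 in 20 groups. Aldh3a2 was lowest in db/db replicate 1, at 246 FPKM against 299.7 to 310.2 FPKM in the others. Akr1c20 was highest in db/db replicate 4, at 114 against 98.9 to 101 FPKM. Control replicate 3 gave the other two: the lowest control value of Adh5, 243 against 302 to 311 FPKM, and the highest of Akr7a5, 125 against 90.1 to 94.8 FPKM. Without control replicate 3, neither gene changed its call.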

How the results depend on the processing

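Of the 23 changed members, 19 kept their call and direction under all those of the 16 alternative settings in which they could be tested. Akr1c6, Aldh8a1, Cbr4 and Fmo2 did not. The 19 include Adh6-ps1, which passed the filter through controls alone and could be tested in 12 settings, so its kept call is no support. Over the settings that left out 1 library, 16 to 19 members were higher and 2 to 4 lower. Over the same settings the count was 0 to 1 for Adh lower, 1 to 2 for Akr lower, 0 to 1 for Aldh lower and 0 to 1 for Cbr higher. Adh6-ps1 could not be tested when a control library was left out, since controls alone reach 1 FPKM. The study states its fold change threshold of 1.5 without a base. Its supplementary list of changed lipid genes holds log2 fold changes under 1.5, among them Acly in db/db. A log2 cut-off of 1.5 was thus not kept in that list. Read as log2 all the same, stricter by construction, the threshold left 2 members higher (both Aldh) and 2 lower. It left 0 higher Akr, Aox, Cbr and Fmo genes and 0 lower Akr genes. Read as a fold change of 1.5, chosen after seeing the data, it gave 13 higher and 4 lower, with 7 Aldh higher and 1 lower, 3 Fmo and 0 Cbr higher and 1 Akr lower. With no filter, 1 Adh gene was higher and 2 were lower, and with quantile normalization 1 Adh gene was higher. The log2 fold change of Adh1, which passed in none, turned to 0.17 with quantile normalization and ran from -0.17 to 0.01 when 1 library was left out, and the cause was not tested. Over all tested genes, 1582 were higher and 1147 lower, against 1404 and 1384 with quantile normalization and 1407 and 1297 with median-ratio scaling. No paired analysis was made because the labels do not pair db/db libraries with control libraries. Depth is unknown, so no counting interval could be given for low values.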
